A study of Mus musculus with 15 samples.

Results

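Cultured marrow mesenchymal stromal cells (MSC) were set against cells labelled P0 Emcn- bone marrow endothelial cells (BMECs) by bulk RNA-seq, with 2 libraries on each side out of 15 libraries in the series. Genes were taken by a fixed rule. Symbols made of Gm and a number, symbols with -ps and symbols ending in Rik, which carry much of the difference between the batches of this series, were left out. Of the others, a gene was described if it had at least 5 CPM (the count of a gene scaled by the total of its library) in both MSC libraries or in both P0 Emcn- libraries. This gave 10710 of the 44674 genes in the table. Gene lists are counted over all of their members that entered the test, so they also hold genes under this minimum, such as Acan, Hoxa13, Col4a6, Col4a4 and Ptprc below. Ccdc57 lay just inside the minimum, with 5.01 and 6.25 CPM in P0 Emcn-, and Zfp54 just outside it, with 4.996 and 5.08 CPM in MSC.

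By the study's methods, the MSC were CD45- tdTomato+ cells sorted after about 2 weeks in MesenCult medium from cells of the femurs and tibias of Osx-Cre;Rosa26-tdTomato mice. In these mice Cre is driven by the promoter of Osx, the product of Sp7 and a transcription factor of the osteoblast lineage. The P0 Emcn- cells were DAPI- CD45- tdTomato+ Emcn- cells, sorted at day 14 from whole bone marrow (WBM) cultures of tamoxifen-treated Tie2-CreERT2;Rosa26-tdTomato mice, in which Cre follows the promoter of Tek (Tie2). The growth protocol in the labels of the MSC describes the WBM culture alone, so the medium of these 2 libraries rests on the methods. WBM cultures grew in EGM-2, an endothelial medium with VEGF, FGF-B, IGF-1, EGF, heparin, ascorbic acid and hydrocortisone, which is a glucocorticoid. Mice were 4 to 6 months old and of either sex, and the labels give the genotype WT for all of these libraries. Emcn is endomucin, a surface sialomucin of venous and sinusoidal endothelium. Both MSC libraries are of batch c, P0 Emcn- replicate 1 is of batch d and P0 Emcn- replicate 2 of batch a. Cell type, Cre driver, medium and batch therefore cannot be told apart between these groups. Replicate 2 of the Emcn- cells passaged to P1, P2 or P3, grown in EGM-2 too, is also of batch c, so the MSC were in addition set against these 3 libraries taken as 1 group. These share a replicate number and a batch and may be passages of 1 culture, in which case they are not independent and the p-values within batch c are too small. The 2 comparisons share the MSC libraries, and their values are given side by side.

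MSC are fibroblast-like cells that adhere to plastic and can give rise to osteoblasts, chondrocytes and adipocytes. They lay down collagen and proteoglycan matrix, and in the marrow they release factors that hold and instruct hematopoietic cells. Endothelial cells line vessels, rest on a basement membrane of type IV collagen and laminin, and in arteries carry angiotensin-converting enzyme on their surface.

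The libraries held 35628327 and 32852945 counts for MSC, and 39718807 and 9914620 for P0 Emcn-, so 3 counts corresponded to 0.0755 to 0.303 CPM. Of the 2 genes whose promoters drove Cre, Sp7 had 2.50 and 5.6 CPM in MSC and 0.201 and 1.51 CPM in P0 Emcn-. Its log2 difference of 2.54 was not called (adjusted p = 0.057), and was 4.38 without P0 Emcn- replicate 2. It was called with a replicate term (2.66, adjusted p = 0.034) or with no filter on low counts (2.53, adjusted p = 0.042). Under the other alternatives that kept both replicates of each group it was not called. Tek, the angiopoietin receptor Tie2, had 5.47 and 5.51 CPM in MSC and 20.3 and 49.4 CPM in P0 Emcn-, a log2 difference of -2.56 ± 0.37 (SE, adjusted p = 0.00076). For the counts of gene lists that follow, the shares over all genes tested were 11.3% called higher in MSC and 7.45% higher in P0 Emcn-. Of 21 endothelial genes tested 0 were called higher in MSC and 3 higher in P0 Emcn-, counts that were 3 and 1 without P0 Emcn- replicate 1 and 0 and 5 without P0 Emcn- replicate 2. Cdh5, the VE-cadherin of endothelial junctions, had 7.86 and 156 CPM in MSC and 119 and 6.35 CPM in P0 Emcn-. The same libraries were high for Pecam1 (CD31), at 15 and 101 against 47.8 and 5.14 CPM, and for Emcn, at 1.23 and 26.7 against 12.7 and 2.52 CPM. Summed over the endothelial list the level was 64.8 and 443 CPM in MSC, 424 and 93.4 CPM in P0 Emcn-, whereas the P0 Emcn+ BMECs of the same series reached 16523 and 13771 CPM. Within batch c the same list went the other way, with 10 of 20 tested called higher in MSC, 2 lower and a median of 2.40, and Cdh5 had 0.185 to 2.33 CPM in the passaged libraries. The summed level of MSC and P0 Emcn- thus overlapped, and in both it was below that of the Emcn+ cells. At the level of RNA these markers go against the endothelial label of the P0 Emcn- cells, which are called here after their sort. By protein the study reports CD31 and VE-cadherin staining in the colony-forming cells of such cultures, which lacked Emcn, and in network-forming cells. RNA was not set against protein here. The arterial genes that the study itself used on these samples, no independent evidence for that reason, gave another picture. Their sum was 1843 and 2667 CPM in MSC, 7728 and 8518 CPM in P0 Emcn-, whereas the Emcn+ cells had 3396 and 3776 CPM. Both P0 Emcn- libraries were thus above the MSC and Emcn+ libraries. These sums include Ace, which was picked as a marker of this comparison, and were not taken without it. Of the 18 genes 4 were called higher in MSC and 5 lower, with a median of -0.71 that was -0.23 without MSC replicate 1, -1.67 without MSC replicate 2 and 0.11 without P0 Emcn- replicate 1. Besides Ace, those lower in MSC included Sparcl1, a matrix protein related to SPARC, at 7.83 and 43.3 against 618 and 1458 CPM (-5.27 ± 0.76, adjusted p = 0.00074). Those higher in MSC included Efnb2 (ephrin B2, a membrane ligand of arterial endothelium), at 63.3 and 67.0 against 20.1 and 16.1 CPM (1.93 ± 0.39, adjusted p = 0.0043). Of 16 limb mesenchyme regulators 1 was called higher in MSC and 3 lower. The 1 was Lhx9, a transcription factor, at 3.96 and 7.55 against 0.453 and 0.706 CPM, and its call was lost whichever of the 4 libraries was left out. The sums were 1094 and 1279 CPM in MSC, 972 and 1324 CPM in P0 Emcn-, but 22.3 and 49.5 CPM in the Emcn+ cells. Of 18 genes of reticular and adipogenic stroma 1 was called higher in MSC, or 0 without P0 Emcn- replicate 1 but 2 when P0 Emcn- replicate 2 was left out, and 3 were called lower, or 5 without MSC replicate 2 or P0 Emcn- replicate 1. Their sums were 2844 and 6793 CPM in MSC, 5491 and 6516 CPM in P0 Emcn-, but 1305 and 1622 CPM in the Emcn+ cells. Both sums overlapped between MSC and P0 Emcn-. In bulk RNA, fewer cells of a type and less RNA per cell cannot be told apart.

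Differences were tested with edgeR's quasi-likelihood test, and calls required a p below 0.05 after Benjamini-Hochberg adjustment and a log2 difference of more than 1.5 in either direction. Over the 19401 genes tested, 2184 (11.3%) were called higher in MSC and 1446 (7.45%) higher in P0 Emcn-. Among the 15305 of these whose symbols the rule keeps, the calls were 1316 (8.6%) and 1121 (7.32%), and among the 4096 whose symbols it leaves out they were 868 (21.2%) and 325 (7.93%). Against the passaged Emcn- libraries of batch c, 1279 of 16581 genes (7.71%) were higher in MSC and 1161 (7%) were lower. Counts of a list that lie near these shares are not a result about its members. Of the described genes, 9481 passed 5 CPM on both sides, and of these 257 were called higher in MSC and 355 higher in P0 Emcn-, while 83.8% differed by less than 1 on the log2 scale. A further 649 genes passed in MSC alone, with 352 called, and 580 passed in P0 Emcn- alone, with 292 called, but the rule itself favors differences among these genes.

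**Figure D1:**
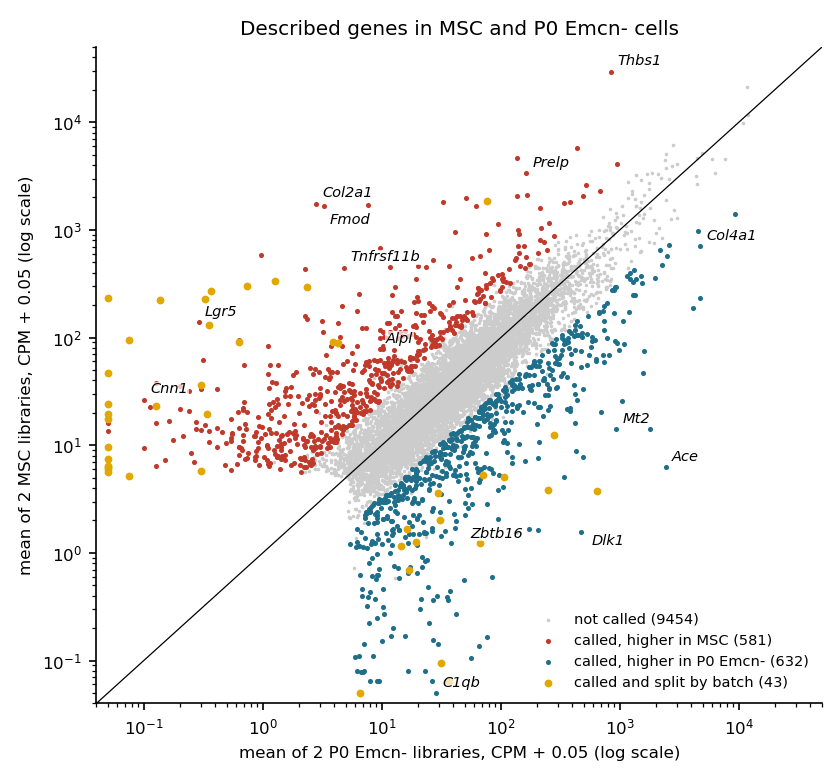
Mean level of each described gene in the 2 MSC libraries (vertical axis) and the 2 P0 Emcn- libraries (horizontal axis), both in CPM plus 0.05 on log scales, with called genes in color and the line of equal level in black. The 9454 genes not called lie along the line, with 581 genes called higher in MSC above it, 632 called higher in P0 Emcn- below it, and 43 called genes that follow the batches (yellow) of which Galnt2l and Rpl17 are examples.

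Part of the difference followed the batches beyond the symbols that the rule leaves out. In 336 genes every library of batches b and c was at least 4 times every library of batches a and d, with at least 1 CPM in the higher ones, and 28 genes had the reverse pattern. Of the 336, 293 had symbols that the rule leaves out, and 28 were among the described genes, all 28 called higher in MSC. Of the 28 with the reverse pattern, 15 were described, all 15 called higher in P0 Emcn-. Galnt2l had 203 and 263 CPM in MSC, 0 counts in both P0 Emcn- libraries and 189, 196 and 227 CPM in P1, P2 and P3 Emcn- of batch c. Galnt2, whose gene model lies within that of Galnt2l on chromosome 8 and which encodes a glycosyltransferase that starts mucin-type O-glycans, had the opposite pattern, with 11.5 and 13.4 CPM in MSC, 349 and 216 CPM in P0 Emcn- and 11.5 to 16.7 CPM in the passaged libraries. Rpl17, a protein of the large ribosomal subunit, had 3.34 and 4.11 CPM in MSC, 493 and 794 CPM in P0 Emcn- and 5.00 to 9.04 CPM in the passaged libraries. In these 3 genes the MSC stood with the passaged Emcn- libraries of their batch. Batches a and d held only P0 and lung cells, and b and c only passaged cells and MSC. Batch and passage therefore cannot be told apart among the Emcn- cells. Whether all batches were quantified with the same annotation was not tested. Of the 12 described genes with the largest log2 difference in each direction, 7 of those higher in MSC and 3 of those higher in P0 Emcn- were of this kind, and the named lists were therefore also redrawn without such genes. Toward MSC the others were Eno1b, Rps3a2, Vcp-rs and Rps12l1, with 211 to 311 CPM in MSC and 0 to 1.11 CPM in P0 Emcn-, and 2 genes without a symbol. The same pattern held for 3 of 4 Y-linked genes. Ddx3y, a Y-linked RNA helicase, had 0.0281 and 0 CPM in MSC and 44.8 and 28.9 CPM in P0 Emcn-, and Eif2s3y, a Y-linked translation factor subunit, had 0 and 0.0913 against 33.5 and 29.4 CPM. Kdm5d, a Y-linked histone demethylase, had 1.77 and 2.16 against 35.3 and 26.1 CPM. The fourth, Uty, had 17.9 and 42.6 against 17.5 and 13.4 CPM and was not called. Xist, the RNA that silences an X chromosome in female cells, was present in all 4 libraries, at 1035 and 826 against 674 and 1093 CPM. For these genes sex and batch cannot be told apart, and whether the groups differed in the sex of the mice was not tested.

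The 4 genes that mark this comparison were Prelp, Fat1, Alpl and Ace. Prelp, a small leucine-rich proteoglycan that ties collagen to heparan sulfate, had 3955 and 2822 CPM in MSC and 114 and 213 CPM in P0 Emcn-. Both MSC libraries were far above both P0 Emcn- libraries, and the log2 difference was 4.48 ± 0.44 (SE, adjusted p = 8.7e-05). The passaged Emcn- libraries of batch c had 359, 957 and 1394 CPM for P1, P2 and P3, and the difference from MSC there was smaller, 1.83 (adjusted p = 0.0486). Fat1, a giant atypical cadherin, had 4402 and 3727 CPM in MSC and 1044 and 867 CPM in P0 Emcn-, 4.54-fold higher (log2 difference 2.18 ± 0.25, adjusted p = 0.0002), with 603 to 905 CPM in the passaged libraries. Of 7 Fat and Dachsous cadherins tested, 2 were called, both higher in MSC. They were Fat1, itself picked as a marker, and Fat4, at 769 and 335 against 26.4 and 89.2 CPM (3.37 ± 0.71, adjusted p = 0.0055). The call of Fat4 was lost in the fit of only the 4 libraries (3.36, adjusted p = 0.053). Alpl, the tissue-nonspecific alkaline phosphatase that degrades pyrophosphate and so lets mineral form, had 106 and 48.9 CPM in MSC, 7.18 and 11.9 CPM in P0 Emcn- and 0.592 to 1.11 CPM in the passaged libraries. Its log2 difference was 3.15 ± 0.41 from P0 Emcn- (adjusted p = 0.00044) and 6.48 from the passaged libraries (adjusted p = 0.00101). Ace, the angiotensin-converting enzyme, had the opposite pattern, with 2.02 and 10.4 CPM in MSC, 1981 and 2886 CPM in P0 Emcn-, and 2339 to 2717 CPM in the passaged libraries. That is 373-fold lower in MSC than in P0 Emcn- (log2 difference -8.54 ± 0.91, adjusted p = 0.00013), and -8.74 on the log2 scale within batch c (adjusted p = 0.00216). The difference from P0 Emcn- was -7.81 without MSC replicate 1 and -10.12 without MSC replicate 2. The groups did not overlap for any of the 4 genes. They had been picked as markers of the comparison, so this is no added support, and overlap was not counted over all genes tested.

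**Figure D2:**
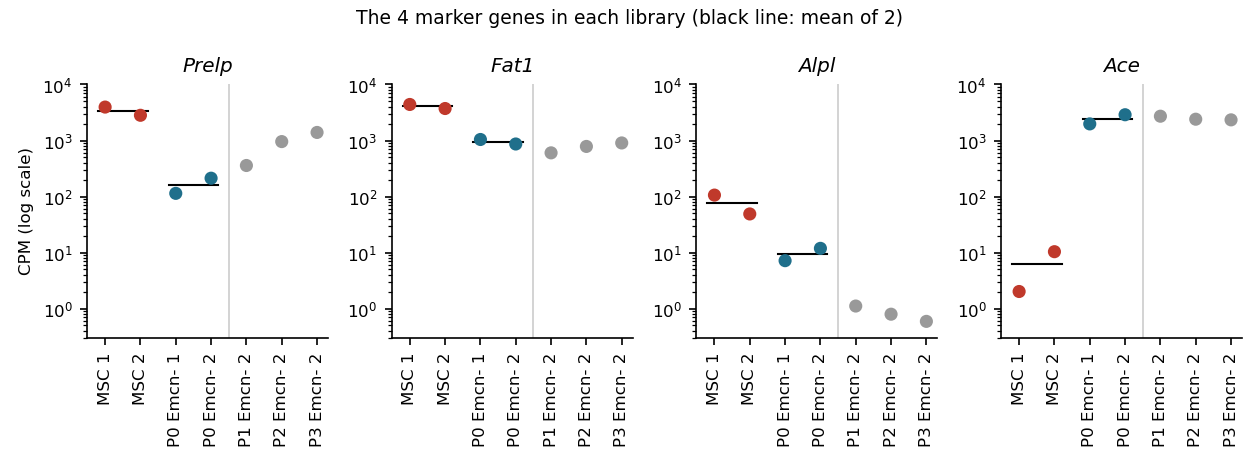
Level of Prelp, Fat1, Alpl and Ace in each library, in CPM on a log scale, for MSC (red), P0 Emcn- (blue) and the passaged Emcn- libraries of batch c (gray), with a black line at the mean of the 2 libraries of a group. Prelp, Fat1 and Alpl are higher in both MSC libraries than in either P0 Emcn- library, and Ace is at 2.02 and 10.4 CPM in MSC against at least 1981 CPM in the other libraries.

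The promoters of 6 genes that carry the contrast are shown from RefSeq (GRCm38.p6), from 250 bases before to 50 bases after the start of the transcript. They are those of Prelp and its neighbor on chromosome 1, Fmod, of the collagenase gene Mmp13, of Ace, and of the neighboring metallothionein genes Mt1 and Mt2 on chromosome 8, whose values follow. Capitals mark matches, on either strand, to the TATA box (TATAAA) and the core bound by RUNX factors (TGTGGT) in Prelp, Fmod, Mmp13 and Ace, and to the metal response core (TGCACNC or TGCGCNC) in Mt1 and Mt2. Of 32851 RefSeq promoters of this length, 13.6% hold the first, 16.8% the second and 25.7% the last.
Prelp, chr1:133921352-133921651, minus strand: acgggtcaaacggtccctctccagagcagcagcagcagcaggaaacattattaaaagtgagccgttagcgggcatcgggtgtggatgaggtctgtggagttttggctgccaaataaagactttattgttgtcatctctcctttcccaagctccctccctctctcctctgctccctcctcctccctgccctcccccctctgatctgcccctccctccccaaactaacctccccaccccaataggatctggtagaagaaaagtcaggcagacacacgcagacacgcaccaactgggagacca
Fmod, chr1:134037004-134037303, plus strand: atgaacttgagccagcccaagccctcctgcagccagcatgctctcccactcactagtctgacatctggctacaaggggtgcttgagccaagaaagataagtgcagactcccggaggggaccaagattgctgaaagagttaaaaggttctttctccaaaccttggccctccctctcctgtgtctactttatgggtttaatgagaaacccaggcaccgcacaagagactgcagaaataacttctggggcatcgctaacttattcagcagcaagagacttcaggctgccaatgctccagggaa
Mmp13, chr9:7272264-7272563, plus strand: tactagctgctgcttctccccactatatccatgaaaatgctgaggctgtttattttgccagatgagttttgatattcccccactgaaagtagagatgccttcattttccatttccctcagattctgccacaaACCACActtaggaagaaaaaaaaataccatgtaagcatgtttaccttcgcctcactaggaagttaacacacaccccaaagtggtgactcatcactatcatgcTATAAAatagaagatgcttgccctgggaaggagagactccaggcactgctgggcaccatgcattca
Ace, chr11:105967698-105967997, plus strand, the first of 2 entries: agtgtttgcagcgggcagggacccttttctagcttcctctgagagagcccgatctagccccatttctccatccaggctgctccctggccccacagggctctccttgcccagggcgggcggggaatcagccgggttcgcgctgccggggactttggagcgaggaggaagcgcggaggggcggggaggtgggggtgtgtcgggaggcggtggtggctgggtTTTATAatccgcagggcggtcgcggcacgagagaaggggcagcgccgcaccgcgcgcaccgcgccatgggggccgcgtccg
Mt1, chr8:94178839-94179138, plus strand: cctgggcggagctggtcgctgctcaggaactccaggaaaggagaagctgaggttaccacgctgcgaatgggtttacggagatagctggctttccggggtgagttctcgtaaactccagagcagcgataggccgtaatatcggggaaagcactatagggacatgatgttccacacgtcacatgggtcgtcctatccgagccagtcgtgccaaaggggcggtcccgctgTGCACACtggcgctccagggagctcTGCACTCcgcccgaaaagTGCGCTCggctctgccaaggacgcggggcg
Mt2, chr8:94172368-94172667, plus strand: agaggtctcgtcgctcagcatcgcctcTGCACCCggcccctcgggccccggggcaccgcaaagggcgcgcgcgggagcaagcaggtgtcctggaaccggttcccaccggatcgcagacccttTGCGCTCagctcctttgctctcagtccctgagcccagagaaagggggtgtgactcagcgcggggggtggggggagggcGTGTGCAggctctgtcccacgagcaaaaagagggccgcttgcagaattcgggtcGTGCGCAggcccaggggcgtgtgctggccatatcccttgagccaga
Prelp and Fmod held none of these letters in the window. Mmp13 held the RUNX core at position -118 from the start, on the opposite strand, and the TATA box at -16. Ace held the TATA box, on the opposite strand, at position -31, and also a metal response core at position 20, left in lower case. Mt1 held 3 metal response cores and Mt2 held 4, and no match overlapped another.

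Small leucine-rich proteoglycans, matrix proteins that bind collagen fibrils and set their thickness, differed more often toward MSC. Of 16 tested, 10 were called higher in MSC and 0 higher in P0 Emcn-, and 6 were not called. The 10 include Prelp, which was picked as a marker of this comparison. Their median log2 difference was 2.22, or 3.60 without P0 Emcn- replicate 2, against 0.000 over all genes tested. Fmod (fibromodulin) had 2015 and 1340 CPM in MSC, 1.16 and 5.24 CPM in P0 Emcn- and 0.717 to 3.81 CPM in the passaged libraries. It was 643-fold higher in MSC than in P0 Emcn- (log2 difference 9.33 ± 0.92, adjusted p = 8.2e-05), and it lies next to Prelp on chromosome 1 (134037254 to 134048277 and 133910304 to 133921414), which was higher in MSC too. Over the alternatives the log2 difference of Fmod ranged from 8.42 to 10.57. A second group lies on chromosome 13 between 49504810 and 49624501, where Ecm2, Aspn, Omd and Ogn follow each other, and all 4 were called higher in MSC. Aspn (asporin, which binds collagen and TGF-beta) had 964 and 380 CPM in MSC and 9.94 and 9.18 CPM in P0 Emcn- (log2 difference 6.24 ± 0.58, adjusted p = 5.8e-05). Omd (osteomodulin, a proteoglycan of mineralized matrix) had 226 and 169 against 0.730 and 8.37 CPM (5.72 ± 0.96, adjusted p = 0.0017). For Ogn (osteoglycin) the replicates lay farther apart, at 3571 and 1621 against 148 and 894 CPM, and the log2 difference of 2.42 ± 0.73 (adjusted p = 0.028) was no longer called without MSC replicate 1 (1.70) or without P0 Emcn- replicate 1 (1.64) and was 4.21 without P0 Emcn- replicate 2. Ecm2, an extracellular matrix protein of this family, had 40.6 and 22.4 against 4.15 and 12.9 CPM (2.02 ± 0.49, adjusted p = 0.011), and its call was lost without the same libraries, at 1.49 and 1.38. The group on chromosome 10, from 97479609 to 97682454, was mixed. Lum (lumican) had 767 and 289 CPM in MSC and 17.5 and 36.3 CPM in P0 Emcn- (4.42 ± 0.95, adjusted p = 0.006). Epyc (epiphycan, of cartilage) had 35.6 and 7.79 against 0 and 0.303 CPM, a count ratio of 369 with an exact 95% counting interval of 126 to 1790. Dcn (decorin), next to them, did not separate the groups, at 2195 and 1033 against 1108 and 2478 CPM, and neither did Bgn (biglycan), at 4029 and 6399 against 6180 and 3710 CPM. Kera, of the same list, was called higher in MSC (7.42), and its difference was 5.10 without P0 Emcn- replicate 1. The call of Kera was lost with only the 4 libraries (adjusted p = 0.065) and with batch terms (adjusted p = 0.15). Without P0 Emcn- replicate 1 the called count was 7 of 16. Within batch c, 10 of 15 tested were higher in MSC and 1 lower, with a median of 3.09.

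Genes of cartilage matrix were among those higher in MSC. Of 17 chondrocyte genes tested, 8 were called higher in MSC and 0 higher in P0 Emcn-, with a median log2 difference of 3.34. Col2a1, the collagen of cartilage fibrils (chromosome 15, 97975602 to 98004695), had 1418 and 2095 CPM in MSC and 0.705 and 4.84 CPM in P0 Emcn-. This is an 808-fold difference (log2 9.66 ± 1.30, adjusted p = 0.00052), and the passaged libraries were also low, at 0.897 to 2.48 CPM. Col11a1, a minor collagen of the same fibrils, had 2631 and 672 against 40.4 and 83.6 CPM (4.85 ± 0.63, adjusted p = 0.0004). Comp, the cartilage oligomeric matrix protein, had 1190 and 727 against 13.3 and 68.9 CPM (4.67 ± 1.09, adjusted p = 0.0088). Hapln1, which links aggrecan to hyaluronan, had 86.4 and 37.9 against 0.0252 and 0.504 CPM (8.85 ± 1.20, adjusted p = 0.00054). Each of these 4 genes was higher in both MSC libraries than in any library of P0 Emcn- or of the passaged cells. How many of all genes tested were so was not counted. Of the transcription factors of chondrocytes, Sox6 was called, while Sox9 and Sox5, the latter with a log2 difference of -0.04, were not. Sox6 had 47.9 and 19.4 against 0.629 and 1.51 CPM (5.23 ± 0.72, adjusted p = 0.0006). Sox9 had 173 and 89.9 against 48.2 and 76.4 CPM, and its log2 difference of 1.19 lay under the limit of 1.5, which it passed without MSC replicate 2 (1.6) or P0 Emcn- replicate 2 (1.52). Acan (aggrecan), the main proteoglycan of cartilage, was at 1.04 and 0.152 CPM in MSC and at 0 counts in both P0 Emcn- libraries and was not called. Col10a1, the collagen of hypertrophic cartilage, had 8.48 and 10.1 against 0.101 and 0 CPM, and its call was lost whichever of the 4 libraries was left out, at an adjusted p of 0.05 to 0.1. Within batch c, 7 of 14 chondrocyte genes tested were higher in MSC and 0 lower.

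Among genes that passed 5 CPM on both sides, the called genes with the highest level in MSC were Thbs1, Timp3, Col12a1, Fat1 and Prelp. Thbs1 (thrombospondin 1, an adhesive matrix protein that inhibits vessel growth and activates TGF-beta) had 39654 and 19304 CPM in MSC, 421 and 1272 CPM in P0 Emcn- and 637 to 669 CPM in the passaged libraries. The log2 difference was 5.23 ± 0.59 from P0 Emcn- (adjusted p = 0.00018) and 5.43 within batch c (adjusted p = 0.00133). Col12a1, a collagen that decorates fibrils, had 8272 and 3308 against 597 and 269 CPM (3.85 ± 0.54, adjusted p = 0.00065). Timp3, a metalloproteinase inhibitor bound to matrix, had 3266 and 6042 against 128 and 145 CPM (5.18 ± 0.51, adjusted p = 8e-05). Its passaged libraries had 798, 2146 and 3792 CPM, and there the difference of 0.97 was not called (adjusted p = 0.281). Of the 24 metalloproteinases and inhibitors tested, 5 were called in each direction, and 3 of 23 in each within batch c. Mmp13, the collagenase of bone and cartilage remodeling, had 301 and 613 CPM in MSC, 5.26 and 18.2 CPM in P0 Emcn- and 0.530 to 5.99 CPM in the passaged libraries (log2 difference from P0 Emcn- 5.43 ± 1.00, adjusted p = 0.0026). Adamts15, a protease of the proteoglycan versican, went the other way, at 4.58 and 12.8 against 555 and 302 CPM (-5.55 ± 0.51, adjusted p = 5.6e-05).

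Collagens as a whole were split, with 6 of 30 tested higher in MSC, 6 higher in P0 Emcn- and a median log2 difference of -0.31, which ranged from -0.57 without MSC replicate 1 and -0.53 without P0 Emcn- replicate 1 to -0.02 without P0 Emcn- replicate 2. Col8a1 and Col8a2, which form the hexagonal lattice of type VIII collagen, were higher in MSC. Col8a2 had 376 and 132 against 9.24 and 3.53 CPM (5.36 ± 0.81, adjusted p = 0.00095). The chains of type IV collagen, the network of basement membranes, went both ways. Col4a1, the first chain of type IV collagen, had 452 and 957 CPM in MSC and 5281 and 4237 CPM in P0 Emcn- (-2.67 ± 0.35, adjusted p = 0.00041), and its partner chain Col4a2 had 435 and 703 against 2865 and 2075 CPM (-2.03 ± 0.28, adjusted p = 0.00055). At far lower levels, Col4a6 had 1.99 and 2.40 against 0.453 and 0.101 CPM and was called higher in MSC (2.81 ± 0.82, adjusted p = 0.023), with 4.53 without P0 Emcn- replicate 1 and no call without any of the other 3 libraries. Col4a4 had 0.421 and 0.244 against 0.0504 and 0.101 CPM, also called higher in MSC, but not without MSC replicate 1 or either P0 Emcn- library. Col18a1, the collagen that contains endostatin, had 36.1 and 116 against 1058 and 919 CPM (-3.62 ± 0.47, adjusted p = 0.00041). Col4a1, Col4a2 and Col18a1 stood between the groups in the passaged libraries of batch c, where Col4a1 had 1829 to 2011 CPM, Col4a2 820 to 939 CPM, with a difference of -0.68 that was not called, and Col18a1 253 to 355 CPM. Lama2, the laminin chain of muscle and stromal basement membranes, had 27.8 and 38.0 against 520 and 463 CPM (-3.81 ± 0.35, adjusted p = 5.5e-05), and 702 to 792 CPM in the passaged libraries. Nid1 (nidogen), which joins laminin to type IV collagen, had 385 and 553 against 1796 and 2697 CPM (-2.17 ± 0.28, adjusted p = 0.00038). Of 15 laminin and basement membrane genes outside the collagens, 2 were called higher in MSC and 4 lower (median -0.27, or -0.59 to -0.47 without any 1 library), and 9 were not called. The 2 were the laminin chains Lamb3, at 5.53 and 0.548 against 0.403 and 0.303 CPM, and Lama1, at 4.46 and 12.6 against 1.64 and 0.403 CPM. The 4 became 2 without MSC replicate 1 or without P0 Emcn- replicate 1, and the 2 became 1 without either MSC library and 0 without P0 Emcn- replicate 2. Of 22 elastic fibre genes, 5 were called lower in MSC and 1 higher, which became 2 without P0 Emcn- replicate 2. Among them Loxl1, which cross-links elastin, had 63.9 and 124 against 765 and 482 CPM (-2.65 ± 0.32, adjusted p = 0.00029), but 69.8 to 119 CPM in the passaged libraries. Within batch c 10 of 28 collagens were higher in MSC and 4 lower, against 2 and 4 of 15 laminin and basement membrane genes and 4 and 3 of 22 elastic fibre genes.

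**Figure D3:**
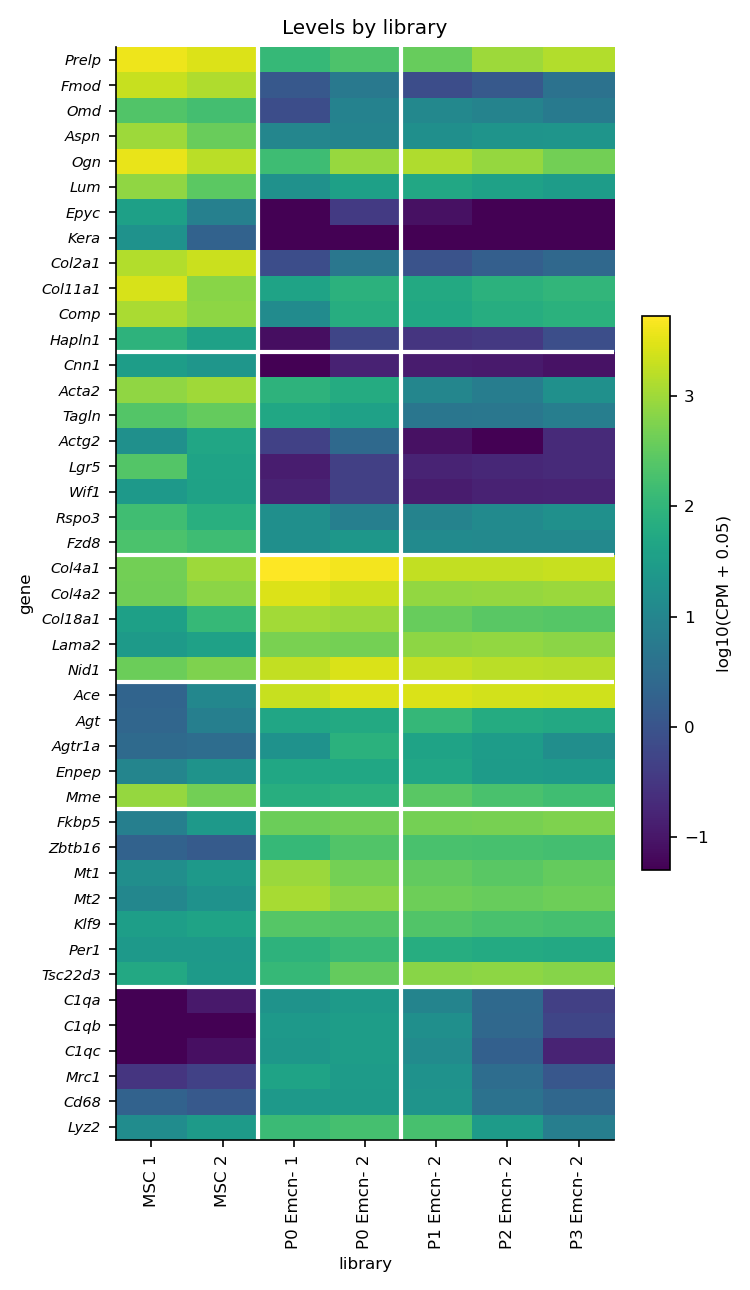
Level of 43 genes of the matrix, contractile, Wnt, basement membrane, renin-angiotensin, glucocorticoid and macrophage groups (rows, in blocks) in MSC, P0 Emcn- and the passaged Emcn- libraries of batch c (columns), as log10 of CPM plus 0.05, where yellow is high and dark blue low. The upper blocks are brighter in the 2 MSC columns, for example Fmod at 2015 and 1340 CPM, while the lower blocks, except Mme, are brighter in P0 Emcn-, and C1qb falls to 15.9, 2.49 and 0.518 CPM in P1, P2 and P3.

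Of 14 contractile genes of smooth muscle and pericytes tested, 6 were called higher in MSC and 0 lower, with a median log2 difference of 2.34. Without MSC replicate 2 the median was 1.04, and without that library or either P0 Emcn- library 4 were called higher. Within batch c 8 of 14 were higher and 0 lower. Without MSC replicate 2, 1 was called higher in P0 Emcn-. Cnn1 (calponin, which binds actin in smooth muscle) had 30.9 and 22 CPM in MSC and 0 and 0.101 CPM in P0 Emcn-. The count ratio was 1323, with an exact 95% counting interval of 237 to 52273. Acta2 (smooth muscle actin) had 789 and 1035 CPM in MSC, 89.1 and 62.2 CPM in P0 Emcn- and 6.83 to 16.5 CPM in the passaged libraries (log2 difference from P0 Emcn- 3.68 ± 0.55, adjusted p = 0.00087). Tagln (transgelin, an actin-binding protein) had 240 and 348 against 48.1 and 37.7 CPM (2.86 ± 0.82, adjusted p = 0.023), and its call was lost without MSC replicate 2 or without either P0 Emcn- replicate. For Cnn1, Acta2 and Tagln the groups did not overlap, but overlap was not counted for the whole list or over all genes. Rgs5, a pericyte marker, had 1.32 and 38.1 against 0.579 and 2.12 CPM. Its call was lost without either P0 Emcn- library and without MSC replicate 2, when its log2 difference was 0.19. The call of Rgs5 was also lost in the fit of only the 4 libraries (4.08, adjusted p = 0.167) and with crossed replicates (3.40, adjusted p = 0.0717).

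Genes of the osteoblast lineage separated the groups less clearly. Of 20 tested, 6 were called higher in MSC and 1 higher in P0 Emcn-, with a median of 1.30. Those higher in MSC were Msx2 (6.22), Dlx6 (3.14), Phex (3.09), Bmp3 (2.73), Dmp1 (1.51) and Alpl, which was picked as a marker. The gene higher in P0 Emcn- was Ifitm5 (-2.47). The count of 6 was 3 without MSC replicate 1, 2 without P0 Emcn- replicate 1 but 10 when P0 Emcn- replicate 2 was left out, and the 1 was 2 without P0 Emcn- replicate 1 and 0 without any of the other libraries. Runx2, the transcription factor that starts osteoblast differentiation, had 77.9 and 56.8 against 42.3 and 34.1 CPM, a log2 difference of 0.91 ± 0.26 under the limit (adjusted p = 0.022), and 19.2 to 21 CPM in the passaged libraries, from which it was called (1.68, adjusted p = 0.00199). Col1a1, the main collagen of bone, had 4752 and 1599 against 5783 and 2891 CPM, so that the groups overlapped, but only 544 to 739 CPM in the passaged libraries. Ibsp (bone sialoprotein) had 22.7 and 14 CPM in MSC and 2.06 and 137 CPM in P0 Emcn-, with 0.143 to 0.331 CPM in the passaged libraries. It was not called (-1.81), but was called higher in P0 Emcn- without P0 Emcn- replicate 1 (-2.80, adjusted p = 0.016) and higher in MSC without P0 Emcn- replicate 2 (3.23, adjusted p = 0.0309). Within batch c, 11 of 20 osteolineage genes tested were higher in MSC and 0 lower, as were 5 of 11 mineralization genes, with 1 lower. Among 12 mineralization genes, 4 were called higher in MSC and 1 higher in P0 Emcn-, the latter 0 without MSC replicate 1 and 2 without either P0 Emcn- library. Besides Alpl, which was picked as a marker, these included both genes that supply the mineral inhibitor pyrophosphate outside the cell. Ank, its exporter, had 259 and 659 against 36.0 and 37.0 CPM (3.73 ± 0.42, adjusted p = 0.00017), and Enpp1, which makes it from ATP, had 133 and 341 against 27.6 and 11.8 CPM (3.65 ± 0.67, adjusted p = 0.0027).

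The posterior Hox genes, which set position along the body and limb, had sums of 283 and 217 CPM in MSC and 137 and 180 CPM in P0 Emcn-. Of 15 tested, 7 were called higher in MSC and 0 higher in P0 Emcn-, with a median of 1.17, but the 7 became 3 without MSC replicate 1 and 2 without P0 Emcn- replicate 1. Hoxa13, a gene of the distal limb, had 2.47 and 2.68 CPM in MSC and 0.0504 and 0.202 CPM in P0 Emcn- (4.91 ± 0.98, adjusted p = 0.0041). Hoxd10 had 19.1 and 2.59 against 0.201 and 0.101 CPM (6.09 ± 0.97, adjusted p = 0.0017), with 3.98 without MSC replicate 1. Within batch c 6 of 15 posterior Hox genes were higher in MSC and 0 lower.

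Signaling genes followed, with the Wnt axis first. Of 30 tested, 13 were called higher in MSC and 2 higher in P0 Emcn- (median 1.47), the 13 became 8 without P0 Emcn- replicate 1, and the 2 became 0 without MSC replicate 1 and 1 without P0 Emcn- replicate 2. Lgr5, the receptor for R-spondins that marks stem cells in several epithelia, had 238 and 40.8 CPM in MSC and 0.0755 and 0.403 CPM in P0 Emcn- (9.93 ± 1.10, adjusted p = 0.00017). Its MSC libraries lay far apart, yet both were above P0 Emcn- and the passaged libraries, at 0.108 to 0.148 CPM. Rspo3, an R-spondin ligand that strengthens Wnt signals, had 152 and 72.3 against 16.1 and 7.26 CPM (3.34 ± 0.43, adjusted p = 0.00038). Among Wnt receptors, Fzd5 had 166 and 156 against 20.7 and 22 CPM (3.01 ± 0.28, adjusted p = 5.7e-05) and Fzd8 had 197 and 144 against 15.5 and 23.1 CPM (3.25 ± 0.26, adjusted p = 2.2e-05). The secreted Wnt inhibitor Wif1 was higher in MSC too, at 26.5 and 39.7 against 0.101 and 0.403 CPM (7.57 ± 0.70, adjusted p = 5.5e-05). Sfrp1, another secreted inhibitor, had 353 and 3816 against 40.8 and 231 CPM, and the call was gone without P0 Emcn- replicate 1 and without MSC replicate 2, when the difference was 1.5. In the comparison within batch c, 16 of 30 were higher in MSC and 2 lower.

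In the BMP axis 7 of 26 genes tested were called higher in MSC and 1 higher in P0 Emcn- (median 0.93), and the 7 became 3 without P0 Emcn- replicate 1. The ligand Bmp4 had 94.4 and 133 CPM in MSC, 1.49 and 4.84 CPM in P0 Emcn- and 7.07 to 19.7 CPM in the passaged libraries (5.41 ± 0.73 from P0 Emcn-, adjusted p = 0.00052). Bmpr1b, a type I BMP receptor, had 14.2 and 13.7 against 0.403 and 0.101 CPM (5.61 ± 0.79, adjusted p = 0.00067). Bmp1, a procollagen protease named with the family, was the 1 gene higher in P0 Emcn-, at 88.1 and 118 against 419 and 413 CPM (-1.92 ± 0.27, adjusted p = 0.00067). In the TGF-beta axis 3 of 14 were called higher in MSC and 2 higher in P0 Emcn-, the latter 1 without MSC replicate 1 or P0 Emcn- replicate 2. Inhba, the subunit of activin A, had 76.4 and 89.3 against 7.30 and 4.94 CPM (3.82 ± 0.25, adjusted p = 8.4e-06). Ccn2 (connective tissue growth factor, a target of TGF-beta and of YAP) had 2033 and 2211 against 163 and 170 CPM (3.77 ± 0.43, adjusted p = 0.0002). Within batch c 10 of 25 BMP axis genes were higher in MSC and 0 lower, and 3 of 14 TGF-beta axis genes higher and 2 lower.

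Of 18 genes of the FGF and IGF axis, 8 were called higher in MSC and 1 higher in P0 Emcn- (median 1.08), the latter 0 without MSC replicate 1 and 2 without MSC replicate 2. The median was 1.71 without P0 Emcn- replicate 2. Fgf7, a stromal growth factor for epithelia, had 336 and 349 against 57.0 and 116 CPM (2.08 ± 0.29, adjusted p = 0.00058). Fgfr2, its receptor in another splice form, had 257 and 96.2 against 10.0 and 18.7 CPM (3.75 ± 0.58, adjusted p = 0.0011). Igf1 had 217 and 135 against 32.6 and 18.2 CPM (2.88 ± 0.38, adjusted p = 0.00048). The IGF-binding proteins went in opposite directions. Igfbp2 had 75.0 and 113 against 0.352 and 0.807 CPM (7.66 ± 1.45, adjusted p = 0.0031). Igfbp3 had 51.0 and 97.7 against 311 and 2887 CPM (-4.34 ± 0.95, adjusted p = 0.0065), a call that was lost without MSC replicate 1, while without P0 Emcn- replicate 2 the difference was -2.01. Within batch c 8 of 18 genes of this axis were higher in MSC and 2 lower.

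Factors that act on hematopoietic and bone cells differed gene by gene, with 4 of 19 called higher in MSC and 1 higher in P0 Emcn- (median 0.61), the latter 2 without MSC replicate 2 and 3 without P0 Emcn- replicate 2. The median was 1.08 without MSC replicate 1 and 0.00 without MSC replicate 2. The shares over all genes tested were 11.3% and 7.45%. Tnfrsf11b (osteoprotegerin, the decoy that blocks RANKL and so osteoclasts) had 440 and 453 CPM in MSC, 4.51 and 5.04 CPM in P0 Emcn- and 6.92 to 14.7 CPM in the passaged libraries. Its replicates nearly coincided, and the difference was 101-fold (log2 6.65 ± 0.31, adjusted p = 1.2e-06). Lif, a cytokine of the IL-6 family, had 18.7 and 22.8 against 4.13 and 1.41 CPM (2.93 ± 0.57, adjusted p = 0.0036). Dlk1, a secreted or membrane-bound Notch family protein, was higher in P0 Emcn-, at 0.954 and 2.04 against 45.4 and 896 CPM (-8.21 ± 1.43, adjusted p = 0.002), with -4.87 without P0 Emcn- replicate 2. The niche factors Cxcl12 and Kitl were not called. Cxcl12, the chemokine that holds hematopoietic stem cells in the marrow, had 1453 and 4601 against 2541 and 1858 CPM. Kitl (stem cell factor) had 156 and 322 against 77.5 and 130 CPM, with a log2 difference of 1.29 ± 0.34 under the limit (adjusted p = 0.016), which it passed without MSC replicate 1 (1.70) or P0 Emcn- replicate 2 (1.68). Within batch c 7 of 17 niche factors were higher in MSC and 1 lower, and Cxcl12 was among the former (1.86, adjusted p = 0.034).

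The renin-angiotensin genes around Ace were also lower in MSC in part. Of 12 tested, Ace itself included, 4 were called lower in MSC and 1 higher, with a median of -1.11, or -0.62 without P0 Emcn- replicate 2. The 4 were Ace, which was picked as a marker of this comparison, and Agt, Agtr1a and Enpep. Agt, the angiotensinogen precursor, had 2.22 and 7.31 CPM in MSC and 47.2 and 56.4 CPM in P0 Emcn- (-3.37 ± 0.51, adjusted p = 0.00095). Agtr1a, the main angiotensin II receptor, had 2.72 and 3.01 against 18.3 and 82.1 CPM (-4.02 ± 0.73, adjusted p = 0.0025), with -2.61 without P0 Emcn- replicate 2. Enpep (aminopeptidase A, which cuts angiotensin II) had 9.68 and 19.1 against 48.3 and 49.6 CPM (-1.68 ± 0.25, adjusted p = 0.00082), and without MSC replicate 1 its difference of -1.29 fell under the limit. Mme (neprilysin), a peptidase that also cuts angiotensin I, was the gene higher in MSC, at 845 and 459 against 72.1 and 85.9 CPM (3.15 ± 0.34, adjusted p = 0.00015). Within batch c the calls were again 4 higher in Emcn-, Ace among them, and 1 higher in MSC, of 10 tested.

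**Figure D4:**
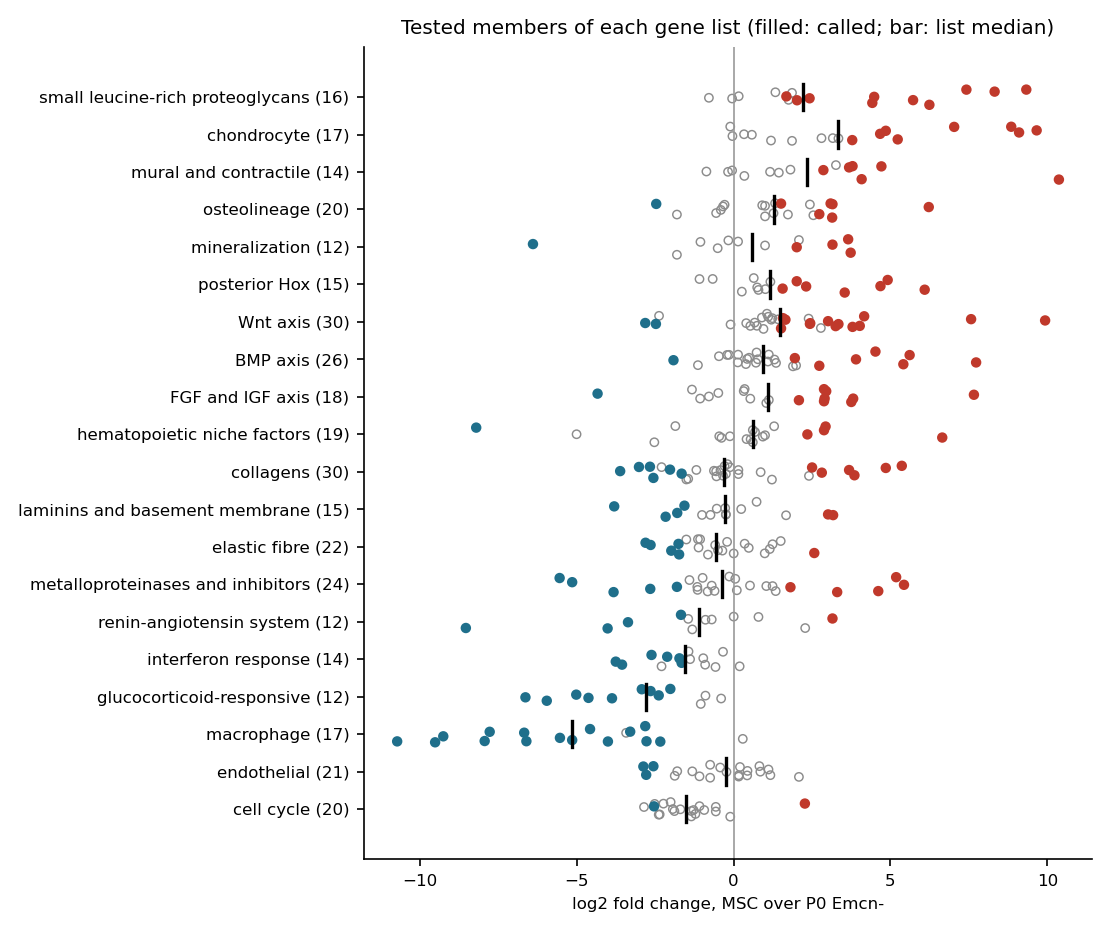
Log2 difference, MSC over P0 Emcn-, of each tested gene of 20 lists (number tested in parentheses), with called genes filled in red (higher in MSC) or blue (higher in P0 Emcn-), other genes as open circles and a black bar at the median of each list. The bars of the proteoglycan, chondrocyte and contractile lists lie at 2.22, 3.34 and 2.34 (the last 1.04 without MSC replicate 2) and those of the glucocorticoid and macrophage lists at -2.79 and -5.15.

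Genes that glucocorticoids induce in many cell types were lower in MSC. Of 12 tested, 9 were called lower in MSC and 0 higher, with a median log2 difference of -2.79, and within batch c the calls were again 9 and 0 of 12, with a median of -3.70. Summed over the list the level was 516 and 602 CPM in MSC, 3792 and 4254 CPM in P0 Emcn-, and 3952 to 4066 CPM in the passaged libraries. The P0 Emcn+ cells, which came from WBM cultures too, had 1141 and 1402 CPM. Fkbp5, the co-chaperone that restrains the glucocorticoid receptor, had 7.47 and 24.6 CPM in MSC, 402 and 434 CPM in P0 Emcn- and 464 to 560 CPM in the passaged libraries (-4.63 ± 0.44 from P0 Emcn-, adjusted p = 6.6e-05). Zbtb16 (PLZF, a transcriptional repressor) had 1.88 and 1.34 against 114 and 231 CPM (-6.64 ± 0.48, adjusted p = 1.3e-05). Klf9, a transcription factor, had 32.0 and 41.4 against 247 and 244 CPM (-2.65 ± 0.17, adjusted p = 8.1e-06). The clock gene Per1 had 24.9 and 25.4 against 90.1 and 128 CPM (-2.02 ± 0.17, adjusted p = 3.8e-05). The metallothioneins, small proteins that bind zinc and copper, were in the same list. Mt2 had 10.4 and 17.9 CPM in MSC, 1155 and 705 CPM in P0 Emcn- and 362 to 413 CPM in the passaged libraries (-5.96 ± 0.47, adjusted p = 2.2e-05), and its neighbor Mt1 had 15.1 and 25.6, 466 to 936 and 279 to 341 CPM (-5.02 ± 0.50, adjusted p = 9.3e-05). Their promoters, shown above, hold several metal response cores. Tsc22d3 (GILZ) had 54.6 and 26.8 against 116 and 344 CPM (-2.39 ± 0.54, adjusted p = 0.0076), a call lost without MSC replicate 2 or without P0 Emcn- replicate 2, when the difference was -1.44. The other 3 were not called. Dusp1, a phosphatase of MAP kinases, had 55.5 and 65.4 against 119 and 147 CPM, Pdk4, a kinase that shuts off pyruvate dehydrogenase, had 55.8 and 57.6 against 61.1 and 166 CPM, and the kinase Sgk1 overlapped between the groups, at 201 and 221 against 199 and 395 CPM. The hydrocortisone of EGM-2 cannot be told apart from cell type here, and the glucocorticoid content of the MSC medium is not given in the sources used here.

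Other genes with the largest differences toward P0 Emcn- were of several kinds. Cxcl13, a chemokine for B cells, had 0.112 and 0 CPM in MSC, 28.4 and 84.3 CPM in P0 Emcn- and 98.6 to 154 CPM in the passaged libraries (-9.81 ± 1.00, adjusted p = 0.0001). Hif3a, a hypoxia-inducible factor subunit, had 0.112 and 0.122 against 42.4 and 111 CPM (-9.26 ± 0.74, adjusted p = 2.4e-05). Cldn11, a tight junction claudin, had 0 and 0.183 against 34.7 and 24.9 CPM (-8.32 ± 0.84, adjusted p = 9.6e-05). Lvrn (laeverin, a membrane aminopeptidase) had 0.168 and 0.274 against 24.5 and 60.2 CPM (-7.49 ± 0.85, adjusted p = 0.00019). In all 4 the passaged libraries of batch c were also above both MSC libraries. At high level, C3 (complement component 3) had 173 and 292 against 2011 and 7353 CPM (-4.24 ± 0.82, adjusted p = 0.0034), and Sned1, a matrix protein, had 151 and 221 against 2124 and 6077 CPM (-4.37 ± 0.55, adjusted p = 0.00036). Malat1, a nuclear long noncoding RNA, had 945 and 996 against 3968 and 5102 CPM (-2.13 ± 0.33, adjusted p = 0.0012), but 1464 to 1893 CPM in the passaged libraries, a difference that was not called. Gsn (gelsolin, which severs actin) had the highest level but rested on single libraries, at 1580 and 1247 against 2430 and 16077 CPM. Its call was lost without either MSC library or without P0 Emcn- replicate 2, when the difference was -0.71. Toward MSC, the genes of large difference not named above included Scg2 (secretogranin II), at 253 and 915 against 1.54 and 0.303 CPM (9.08 ± 0.92, adjusted p = 9.6e-05), Abi3bp, a matrix protein, at 2516 and 897 against 2.59 and 12.7 CPM (8.00 ± 0.95, adjusted p = 0.00025), and Hs6st2, which sulfates heparan sulfate, at 455 and 409 against 2.34 and 2.12 CPM (7.67 ± 0.69, adjusted p = 4.7e-05). The list redrawn without genes that follow the batches added, besides genes named elsewhere, Abi3bp and Hs6st2, Palmd, at 43.5 and 20 against 0.378 and 0 CPM (6.98 ± 0.96, adjusted p = 0.0006), and Klhdc8a, at 57.8 and 53.8 against 0.277 and 1.01 CPM (6.90 ± 1.33, adjusted p = 0.0034). Toward P0 Emcn- it added Crocc2, at 0.758 and 0.335 against 48.2 and 120 CPM (-7.15 ± 0.88, adjusted p = 0.00032), Islr2, at 0.168 and 0.183 against 20.8 and 28.5 CPM (-7.04 ± 0.62, adjusted p = 4.4e-05), and Dpep1, a membrane dipeptidase, at 4.49 and 23.6 against 608 and 3008 CPM (-6.93 ± 0.97, adjusted p = 0.00064).

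Macrophage genes were higher in P0 Emcn-, with 15 of 17 tested called higher there and 0 higher in MSC (median -5.15). Their summed level was 25.5 and 38.6 CPM in MSC and 360 and 413 CPM in P0 Emcn-, and 11 of the 17 were under 0.5 CPM in both MSC libraries. C1qb, a chain of complement C1q, had 0 counts in both MSC libraries and 25.8 and 30.9 CPM in P0 Emcn-, at least 611-fold higher against 3 counts over the MSC libraries. C1qc, another of its chains, had 0 and 0.0304 against 22.3 and 30.7 CPM, a count ratio of 1643 with an exact 95% counting interval of 294 to 64960. Ctss (cathepsin S, a lysosomal protease) had 0 and 0.213 against 25.8 and 27.9 CPM (-7.94 ± 0.83, adjusted p = 0.00012). Mrc1 (CD206) had 0.253 and 0.426 against 40.9 and 29.0 CPM (-6.61 ± 0.56, adjusted p = 3.3e-05), and Ptprc (CD45), the antigen the sorts gated against, had 0.225 and 0.396 against 3.75 and 2.62 CPM (-3.30 ± 0.57, adjusted p = 0.002). In the passaged libraries the sum was 319, 55.1 and 17.3 CPM for P1, P2 and P3, and within batch c 1 of 16 was called lower in MSC and 0 higher (median -3.71). The part of macrophage RNA in the other differences was not tested. Of 14 interferon response genes 6 were called lower in MSC and 0 higher (median -1.55), with 10 of 14 and 0 within batch c. Oas1a, an antiviral enzyme, had 0.617 and 1.74 against 19.2 and 14.1 CPM (-3.76 ± 0.45, adjusted p = 0.00026), and Oasl2 had 10.9 and 13.2 against 68.2 and 89.8 CPM (-2.62 ± 0.40, adjusted p = 0.0011).

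**Figure D5:**
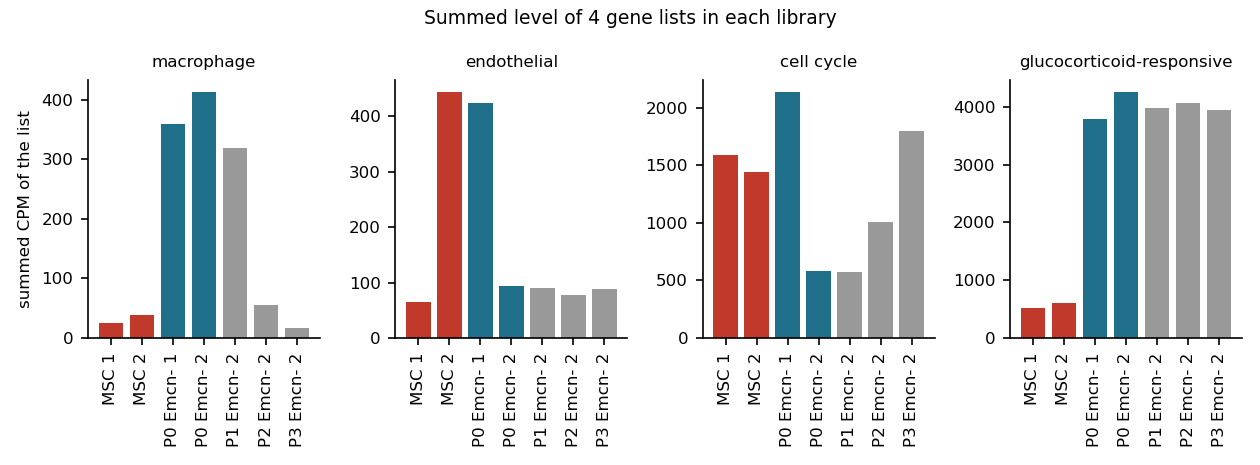
Summed level of the macrophage, endothelial, cell cycle and glucocorticoid-responsive lists in each library (bars, in CPM from 0), for MSC (red), P0 Emcn- (blue) and the passaged Emcn- libraries of batch c (gray). The macrophage sum is 25.5 and 38.6 CPM in MSC against 360 and 413 CPM in P0 Emcn-, the endothelial and cell cycle sums overlap between the groups, and the glucocorticoid sum is lowest in the 2 MSC libraries.

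Several groups separated the cells little or not at all. Of 19 cholesterol synthesis genes 0 were called in either direction (median -0.45), although without P0 Emcn- replicate 2 the count higher in P0 Emcn- was 5 (median -1.03), and without P0 Emcn- replicate 1 the count higher in MSC was 1 (median 0.71). Of 20 cell cycle genes 1 was called in each direction, but 14 were called higher in P0 Emcn- without P0 Emcn- replicate 2 and 0 without any of the other 3 libraries. Their sum was 1590 and 1446 CPM in MSC against 2136 and 580 CPM in P0 Emcn-, with Mki67, a marker of dividing cells, at 41.2 and 49.6 against 478 and 15.5 CPM, called at -3.33 without P0 Emcn- replicate 2. P0 Emcn- replicate 1 was thus above both MSC libraries and replicate 2 below them. Of 18 fibroblast genes 2 were called higher in MSC and 3 higher in P0 Emcn- (median -0.30), with sums of 36008 and 31328 against 26335 and 42460 CPM, where the Emcn+ cells had 4466 and 6054 CPM. The 2 became 4 without P0 Emcn- replicate 2 and the 3 became 1 without MSC replicate 1. Of 15 surface markers of MSC 1 was called higher in MSC, or 5 without P0 Emcn- replicate 1 and 2 without MSC replicate 1 or P0 Emcn- replicate 2, and 2 were called higher in P0 Emcn-, or 1 without MSC replicate 1. Nt5e (CD73) had 30.5 and 73.8 against 2.54 and 2.32 CPM (4.49 ± 1.00, adjusted p = 0.0071). Ly6a (Sca-1) was higher in P0 Emcn-, at 147 and 137 against 604 and 874 CPM (-2.28 ± 0.50, adjusted p = 0.0066), and so was Pdgfra, a receptor of stromal cells, at 209 and 491 against 1147 and 1566 CPM (-1.87 ± 0.33, adjusted p = 0.0023), although without MSC replicate 1 its difference of -1.40 fell under the limit.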

How the data were processed

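RNA of sorted cells was sequenced as bulk libraries of total RNA. The authors aligned reads to GRCm38 with STAR and quantified Ensembl genes with Salmon in the nf-core pipeline, and the deposited counts are whole numbers per gene, not normalized. How estimated counts were made whole is not given in the sources used here. In this work all 15 libraries entered 1 model with a coefficient for each of 8 groups (edgeR 4.0.16 in R 4.3.3, TMM scaling, quasi-likelihood test, residual df 7), after a filter of 10 counts (filterByExpr, minimum total 15), and p-values were adjusted over 19401 genes by Benjamini-Hochberg. The comparison within batch c used MSC and replicate 2 of P1 to P3 Emcn-. Intervals of count ratios are exact and cover counting error only, and a gene with 0 counts in a group was taken at 3 counts over the group. Replicates were cultures of different animals. The replicates of a group differed by more than counting error (chi-square per degree of freedom 128.9 and 140.5). In simulated counts for MSC against P0 Emcn- over 19401 genes, 52 of 100 genes changed by 2 and 69 of 100 changed by 3 on the log2 scale were called. Another 3 genes were called though unchanged. The simulation gave each unchanged gene the same mean share in all 15 libraries and held no batch effect. These rates need not hold for the real groups, which share no batch.

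Named genes were the 12 called with the largest difference in each direction (groups not overlapping, no library of the higher side under 20 CPM), the 5 called of highest level in each direction, the 4 markers, and members of 38 lists (547 genes, 513 tested). The members and lists were chosen with earlier results of these data known. Alternatives were DESeq2 1.42.0 with and without ashr 2.2.63, RLE scaling, other filters, only the 4 libraries, batch or replicate terms, and leaving out each library. Thinning, crossed replicates and leaving out genes split by batch were chosen after seeing the data.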

Additional observations from a re-analysis of the deposited data

How the results depend on the processing

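With no limit on the fold change, 3690 genes were higher in MSC and 3163 higher in P0 Emcn-. Leaving out predicted symbols before scaling gave 1321 genes higher in MSC, since fewer genes were tested, and a fit of only the 4 libraries gave 906 higher in P0 Emcn-, with fewer samples. Leaving out each library in turn gave 1486 to 1911 genes higher in MSC and 968 to 1439 higher in P0 Emcn-. Under the other alternatives these counts stayed within 1.5 times 2184 and 1446. The replicate block gave 2205 and 1435, and deviations of same-numbered libraries had a correlation of -0.103, so the numbers did not pair the samples. Crossed pairs, tried after seeing the data, gave 2250 and 1455. Of 132 genes named, 98 kept their call and direction under all 17 alternatives.

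Signs turned in genes that were not called, and the cause was not tested. The replicate block gave 0.12 for Dcn and -0.24 for Cdh5. Leaving out each library gave -1.38 to 0.24 for Col1a1, -0.73 to 0.62 for Dcn, -0.82 to 0.15 for Sgk1, -0.75 to 3.56 for Pecam1, -2.80 to 3.23 for Ibsp, -3.33 to 1.63 for Mki67, -0.19 to 0.57 for Bgn, -2.91 to 3.75 for Cdh5, -2.60 to 2.53 for Emcn, -0.49 to 1.13 for Cxcl12 and -0.14 to 0.53 for Xist.

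P0 Emcn- replicate 2 held the fewest counts, 9914620, so genes under 0.303 CPM were under 3 counts there. With 2 libraries a group, a difference that was not called is not shown to be absent.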
